A study of Rattus norvegicus with 6 samples.

Results

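The 10 genes described here mark the GABAergic interneurons of the cortex, and they were chosen by symbol: Gad1, Gad2, Slc32a1, Pvalb, Sst, Npy, Vip, Cck, Lamp5 and Reln. Each had 1 row of its own in every library, none shared its row with another gene, and all 10 lay among the 10642 genes tested, of 26622 symbols with a usable value. RNA came from a slab 1 mm thick, labelled prefrontal cortex, of 6 male F344 rats aged 18 months. The 3 manipulated rats (replicates 4, 5 and 6) underwent cranial osteopathic manipulation, in which a practitioner works on the head by hand, for 7 days with isoflurane anaesthesia at 1.5 to 3%. The 3 untreated rats (replicates 1, 2 and 3) were anaesthetised too, and each rat gave 1 library of the whole slab. The study asked how gene expression in this tissue differs after the treatment.

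GABAergic interneurons are the local inhibitory cells of the cortex. They make GABA with the glutamate decarboxylases, load it into vesicles with the transporter encoded by Slc32a1, and fall into classes that are named for a calcium-binding protein or a peptide: parvalbumin cells that inhibit the cell body and axon of pyramidal cells, somatostatin cells that inhibit dendrites, VIP cells that inhibit other interneurons, and neurogliaform cells that carry Lamp5 or reelin. None of the 10 genes is private to these cells. The medium spiny neurons of the striatum are GABAergic as well and use the same synthesis and loading genes, and Cck is also made by many glutamatergic neurons of the forebrain. In RNA of whole tissue, fewer cells of a type and less RNA per cell cannot be told apart.

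Levels are given in FPKM, which divides the fragments of a gene by its transcript length and by the size of the library. They can therefore be set beside each other between genes, but the read depth behind them is unknown, and the deposited interval of each value is the only sign of its counting error. In manipulated libraries FPKM was lower for the bulk of tested genes: on the log2(FPKM + 1) scale the median log2 fold change was -0.36, and 87.0% of genes lay below 0. The libraries differed in scale, with median-ratio factors of 0.647 to 0.995 in manipulated and 0.954 to 1.32 in untreated libraries, and manipulated replicate 6 had the lowest. After division by these factors the median was -0.0036, so fold changes are given as deposited and with this scaling. The tests compare 3 rats with 3, by limma on log2(FPKM + 1) with Benjamini-Hochberg adjustment over all tested genes.

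As deposited, none of the 10 genes passed the adjusted p of 0.05, where 0.357% of tested genes did, 0.0846% higher and 0.273% lower. At an unadjusted p under 0.05 there were 4 of the 10, 2 higher (Lamp5 and Slc32a1) and 2 lower (Vip and Cck), against 15.1% of tested genes, 1.47% higher and 13.6% lower. The same 4 were the ones in which the groups did not overlap, against 24.8% of tested genes, 1.08% higher and 23.7% lower. Of the 10 genes 7 had a positive log2 fold change and 3 a negative one, with a median of 0.40 beside -0.36 for all tested genes. With median-ratio scaling 1 gene passed the adjusted p, Slc32a1, where 0.291% of tested genes did and 0.094% rose. With that scaling 8 of the 10 had an unadjusted p under 0.05, 7 higher and 1 lower, against 6.46% higher and 4.8% lower among tested genes. The groups then did not overlap in 8 of the 10, 7 higher and 1 lower, against 19.9% of tested genes, 10.1% higher and 9.87% lower.

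**Figure D1:**
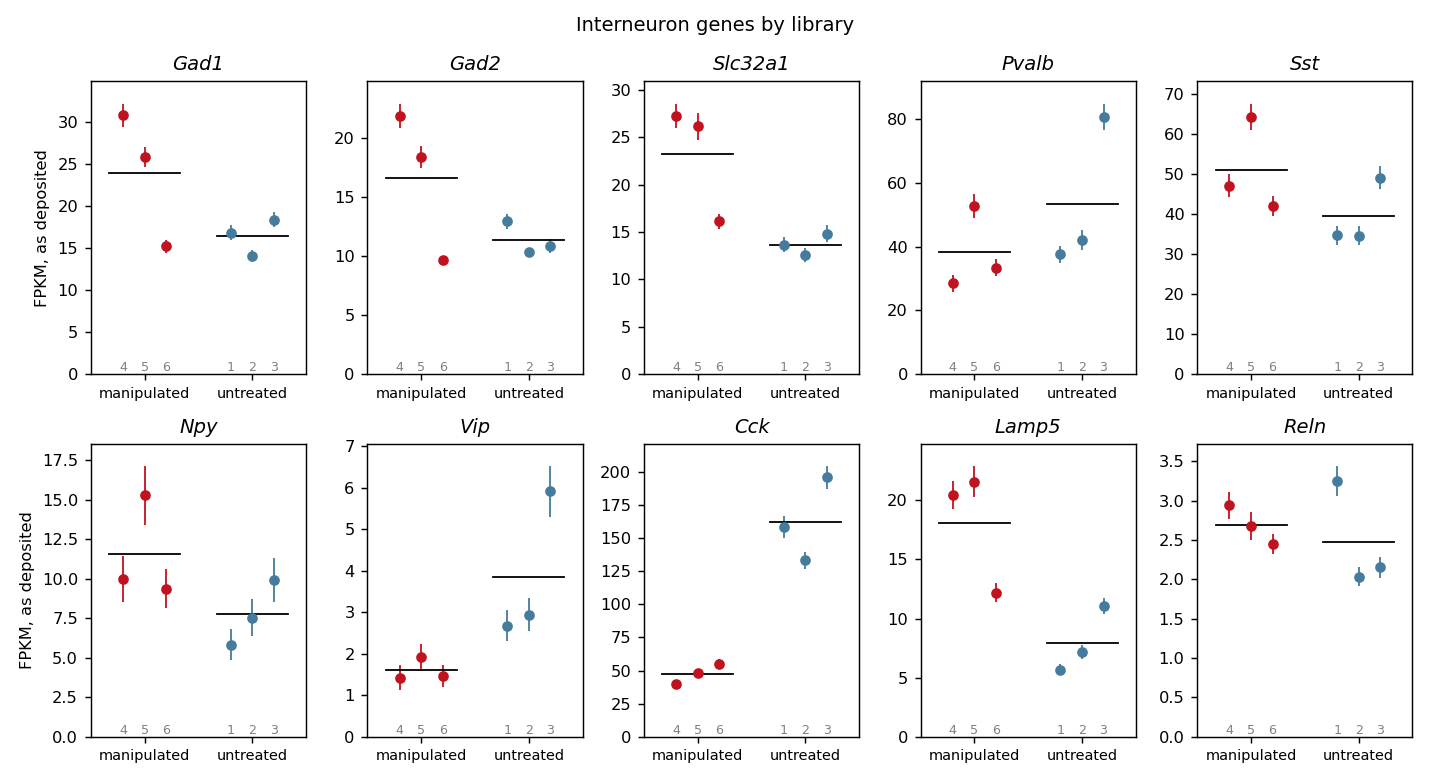
FPKM as deposited for each of the 10 genes in each library, manipulated replicates 4, 5 and 6 in red on the left and untreated replicates 1, 2 and 3 in blue on the right. Vertical lines are the deposited interval of the value and black bars are group means; the groups stand apart in Cck, Vip, Lamp5 and Slc32a1, and manipulated replicate 6 is the lowest manipulated library for 7 of the 10 genes, Gad1, Gad2, Slc32a1 and Lamp5 among them.

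The genes that make and load GABA are the broadest markers of the class. Gad1 (chromosome 3, 56861396 to 56902157, Rnor_6.0), the decarboxylase that makes most of the GABA of the cell body, had 30.8, 25.8 and 15.2 FPKM in manipulated replicates 4, 5 and 6, against 16.8, 14.0 and 18.4 FPKM in untreated replicates 1, 2 and 3. Manipulated replicates 4 and 5 were above every untreated library, and replicate 6 was inside the untreated range. The log2 fold change was 0.47 (SE 0.32) with a limma adjusted p of 0.378, and 0.90 (SE 0.15) with an adjusted p of 0.121 after scaling. Gad2 (chromosome 17, 89171250 to 89238040), the decarboxylase found at nerve endings, had 21.9, 18.4 and 9.70 FPKM in manipulated libraries, against 12.9, 10.4 and 10.9 FPKM in untreated ones. Here replicate 6 was below every untreated library, while the other two manipulated libraries were above them all. The log2 fold change of Gad2 was 0.45 (SE 0.32), with a limma adjusted p of 0.398, and 0.87 (SE 0.18), with an adjusted p of 0.171, after scaling. Scaled values did not overlap between groups for either gene, with manipulated replicate 6 at 23.5 for Gad1 and 15.0 for Gad2.

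Slc32a1 (chromosome 3, ending at 155107817 to 155107866), the vesicular GABA transporter, had 27.3, 26.2 and 16.1 FPKM in manipulated libraries, against 13.7, 12.6 and 14.8 FPKM in untreated libraries. The groups did not overlap, but the deposited interval of manipulated replicate 6, from 15.3 to 17.0 FPKM, met that of untreated replicate 3, from 13.9 to 15.7 FPKM. Its log2 fold change was 0.69 (SE 0.29) as deposited, with a limma adjusted p of 0.326, and 1.12 (SE 0.12) with median-ratio scaling, where it rose with an adjusted p of 0.0362. Scaled values were 28.8, 26.3 and 24.9 in manipulated and 10.3, 13.2 and 11.9 in untreated libraries, so that scaling brought replicate 6 up to the other two. Without any 1 library the scaled adjusted p ran between 0.0549 and 0.142, and the call ended in all 6 such fits.

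The proportion of the 2 decarboxylases did not separate the groups. The ratio of Gad1 to Gad2 was 1.41, 1.40 and 1.57 in manipulated libraries, against 1.30, 1.36 and 1.69 in untreated libraries, and such a ratio does not depend on how libraries are scaled. Gad1 stood to Slc32a1 as 1.13, 0.987 and 0.942 in manipulated libraries, against 1.23, 1.12 and 1.24 in untreated libraries. These ranges also met.

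Pvalb (chromosome 7, 119441487 at its end), which encodes the calcium buffer of fast-spiking basket and chandelier cells, had 28.5, 52.7 and 33.3 FPKM in manipulated libraries, against 37.5, 42.1 and 80.8 FPKM in untreated libraries. The groups overlapped widely, and untreated replicate 3 stood above the other 5 libraries. As deposited the log2 fold change was -0.44 (SE 0.38), with a limma adjusted p of 0.457, and 0.0074 (SE 0.36), with an adjusted p of 0.996, after scaling, so that its sign depends on the scaling. Against the vesicular transporter Pvalb was lower in manipulated libraries. Its ratio to Slc32a1 was 1.05, 2.01 and 2.06 there, against 2.75, 3.35 and 5.45 in untreated libraries, with a geometric mean 0.443 times as high.

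Sst and Npy are the peptides of the dendrite-targeting cells, and Npy is made by neurogliaform cells too. Sst (chromosome 11, 80358211 to 80359444) had 47.1, 64.4 and 42.1 FPKM in manipulated libraries, against 34.7, 34.6 and 49.1 FPKM in untreated libraries. Untreated replicate 3 lay inside the manipulated range, and the log2 fold change was 0.36 (SE 0.31), with a limma adjusted p of 0.444. After scaling the groups stood apart, the log2 fold change was 0.81 (SE 0.20) and the adjusted p 0.235. Npy (chromosome 4, 79573998 to 79581208) had 10.01, 15.3 and 9.39 FPKM in manipulated libraries, against 5.84, 7.55 and 9.93 FPKM in untreated libraries. The groups met at untreated replicate 3. Npy had a log2 fold change of 0.51 (SE 0.29), limma adjusted p 0.337, and 0.92 (SE 0.25) with 0.274 after scaling.

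The level of Npy is uncertain, since the annotation holds a companion row 8900 bases before it on chromosome 4, LOC100912228 (79557854 to 79565097). That row stood to Npy as 0.921, 0.921 and 0.921 in manipulated libraries and 0.918, 0.926 and 0.925 in untreated libraries. The 2 rows thus kept one proportion in every library, and whether the authors' counting split fragments between them was not tested. The 2 rows together had 19.2, 29.4 and 18.0 FPKM in manipulated libraries, against 11.2, 14.6 and 19.1 FPKM in untreated libraries, so the order of the libraries is the same for the sum. The ratio of Npy to Sst was 0.212, 0.237 and 0.223 in manipulated libraries, against 0.168, 0.218 and 0.202 in untreated libraries. These ranges overlapped.

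Vip (chromosome 1, 42169501 to 42177582), the peptide of the interneurons that inhibit other interneurons, was low in every library and lower in manipulated ones. It had 1.43, 1.91 and 1.46 FPKM in manipulated libraries, against 2.67, 2.94 and 5.91 FPKM in untreated libraries. The groups did not overlap, and neither did the deposited intervals, which reached up to 2.24 FPKM in manipulated replicate 5 and down to 2.30 FPKM in untreated replicate 1. The log2 fold change was -0.84 (SE 0.28), with an unadjusted p of 0.0133 and a limma adjusted p of 0.310. With median-ratio scaling it was -0.52 (SE 0.25), with an adjusted p of 0.484, and the groups then met, at 2.26 in manipulated replicate 6 and 2.02 in untreated replicate 1.

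Against Slc32a1, Sst and Pvalb in the same library Vip was lower without overlap, and against Cck it was not. Its ratio to Slc32a1 was 0.0523, 0.0729 and 0.0905 in manipulated libraries, against 0.196, 0.234 and 0.398 in untreated libraries, a geometric mean 0.267 times as high. Its ratio to Sst was 0.0303, 0.0297 and 0.0347 in manipulated libraries, against 0.0770, 0.0848 and 0.120 in untreated libraries. To Pvalb it stood as 0.050, 0.0362 and 0.0438 in manipulated libraries, against 0.0713, 0.0698 and 0.0731 in untreated libraries. To Cck it stood as 0.0356, 0.0398 and 0.0265 in manipulated libraries, against 0.0169, 0.0221 and 0.0302 in untreated libraries, with overlapping ranges and a geometric mean 1.49 times as high. The ratio of Pvalb to Sst was lower too, at 0.605, 0.819 and 0.792 in manipulated and 1.08, 1.22 and 1.65 in untreated libraries. Of 15 such ratios among the genes, chosen after the values were seen and not tested, 7 did not overlap between groups. The 15 are not independent, since 9 are ratios to Slc32a1. Among the 7, Lamp5 to Slc32a1 stood apart only by 0.7486 in manipulated replicate 4 against 0.7455 in untreated replicate 3. How often the other tested genes stand apart in ratios to these same genes was not computed. Whether 7 of 15 is unusual therefore cannot be told.

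**Figure D2:**
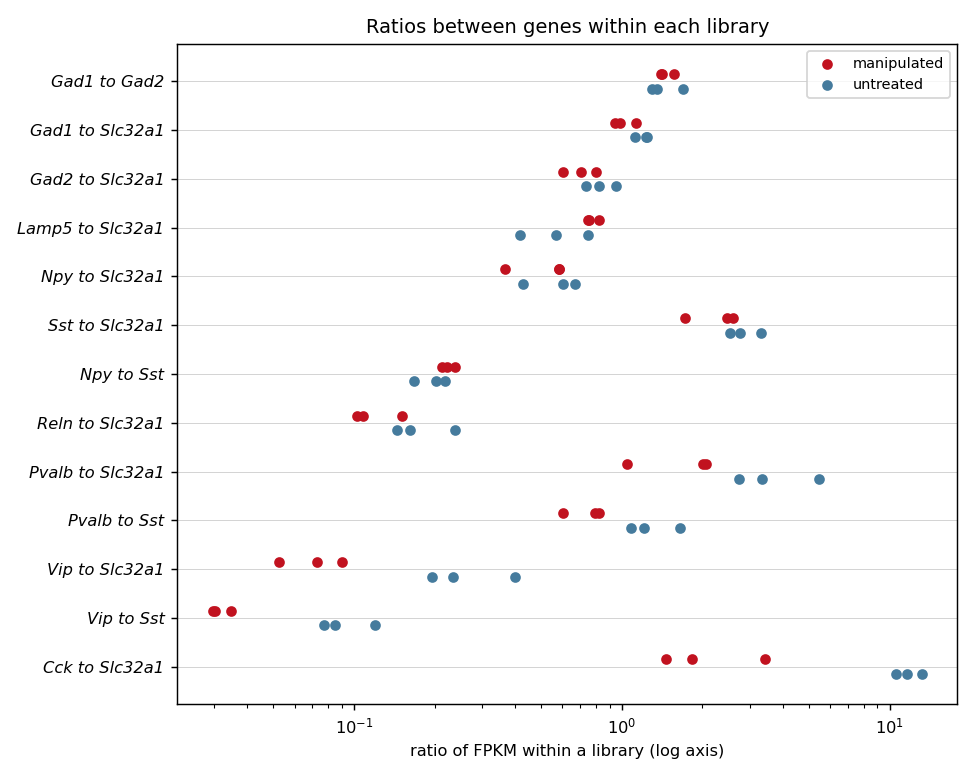
Ratios of FPKM between genes within each library, on a log axis, manipulated libraries in red above and untreated libraries in blue below on each line. Gad1 to Gad2 and Npy to Sst overlap between groups, while Vip to Sst, Pvalb to Sst and Cck to Slc32a1 lie lower in all 3 manipulated libraries.

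Sst and Vip, whose log2 fold changes lay on opposite sides of 0, are textbook targets of cAMP signalling in rodents. Their promoters are shown because Sst holds the whole cAMP response element and Vip its first 7 letters. Promoters came from RefSeq (build GRCr8, covering 250 bases before to 50 after the start of a gene), where 9 of the 10 genes had an entry. The lines below run 5′ to 3′ over 140 bases, from 120 before to 20 after the annotated start, both on the plus strand, at chr11:90461426-90461565 and chr1:44470360-44470499, and capitals mark the motif.
Sst: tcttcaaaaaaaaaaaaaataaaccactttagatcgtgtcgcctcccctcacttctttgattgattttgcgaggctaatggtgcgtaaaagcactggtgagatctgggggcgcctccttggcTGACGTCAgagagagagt
Vip: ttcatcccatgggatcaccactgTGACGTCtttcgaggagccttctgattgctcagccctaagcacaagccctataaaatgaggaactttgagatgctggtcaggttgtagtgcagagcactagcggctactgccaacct
The whole motif TGACGTCA, which reads the same on both strands, is in 1.83% of the 33469 promoters and, among the 9 genes, in Sst alone, starting at base 3 of the annotated transcript. Its first 7 letters, TGACGTC, searched on both strands, are in 3.22% of promoters and in Sst and Vip, where they start 97 bases before the annotated start. The 7-letter search also counts every whole motif, and a match of letters is a description only.

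Cck (chromosome 8, ending at 130127392), the cholecystokinin precursor, showed the widest difference of the 10 genes. In the cortex it marks a class of basket cells and is also made by pyramidal cells, and it is made by thalamic neurons. It had 40.0, 48.0 and 55.2 FPKM in manipulated libraries, against 158, 133 and 196 FPKM in untreated libraries. Every manipulated library was far below every untreated one, with deposited intervals reaching up to 58.4 FPKM in manipulated and down to 127 FPKM in untreated libraries. Mean levels were 47.7 ± 7.60 FPKM in manipulated and 162 ± 31.5 FPKM in untreated rats (SD, n = 3 each), a ratio of 0.294. The log2 fold change was -1.74 (SE 0.30), below that of all but 0.770% of tested genes, with an unadjusted p of 0.000242 and a limma adjusted p of 0.0644.

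With median-ratio scaling the log2 fold change of Cck was -1.29 (SE 0.28), with an adjusted p of 0.202. Scaled values were 42.3, 48.2 and 85.4 in manipulated and 120, 140 and 156 in untreated libraries, so that the groups still stood apart and replicate 6 moved nearest to the untreated libraries. Its ratio to Slc32a1 was 1.47, 1.83 and 3.42 in manipulated libraries, against 11.6, 10.6 and 13.2 in untreated libraries. Against Slc17a7, the vesicular glutamate transporter of cortical pyramidal cells, Cck stood at 0.668, 0.645 and 1.09 in manipulated libraries and at 1.43, 1.86 and 2.30 in untreated libraries, again without overlap. Its receptor gene Cckbr had 3.48, 3.19 and 3.44 FPKM in manipulated and 2.32, 2.31 and 4.17 FPKM in untreated libraries, with groups that overlapped.

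Lamp5 (chromosome 3), a membrane protein of neurogliaform cells that also occurs in other neurons, had 20.4, 21.6 and 12.2 FPKM in manipulated libraries, against 5.69, 7.15 and 11.1 FPKM in untreated libraries. The groups stood apart, but the deposited intervals of manipulated replicate 6 and untreated replicate 3 met, from 11.4 FPKM and up to 11.7 FPKM. Its log2 fold change was 1.09 (SE 0.32), above that of 98.4% of tested genes, with an unadjusted p of 0.00791 and a limma adjusted p of 0.302. After scaling it was 1.51 (SE 0.24), with an adjusted p of 0.121 and groups that did not overlap.

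The assembled Lamp5 row was not the same in the 2 groups. It began at 129018592 in all 3 untreated libraries, and in the 3 manipulated libraries it began 5575 to 5691 bases further upstream, between 129012901 and 129013017. FPKM is scaled by the length of the assembled transcripts, so this difference in the row can move the value, and its part in the result was not tested.

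Reln (chromosome 4, from 9347528), the secreted protein of layer 1 cells and of several interneuron classes, differed least among the 10 genes as deposited. It had 2.94, 2.68 and 2.44 FPKM in manipulated libraries, against 3.25, 2.03 and 2.16 FPKM in untreated libraries. All 3 manipulated values lay inside the untreated range. Its log2 fold change was 0.10 (SE 0.22), with a limma adjusted p of 0.756, and 0.43 (SE 0.14), with an adjusted p of 0.357, after scaling.

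**Figure D3:**
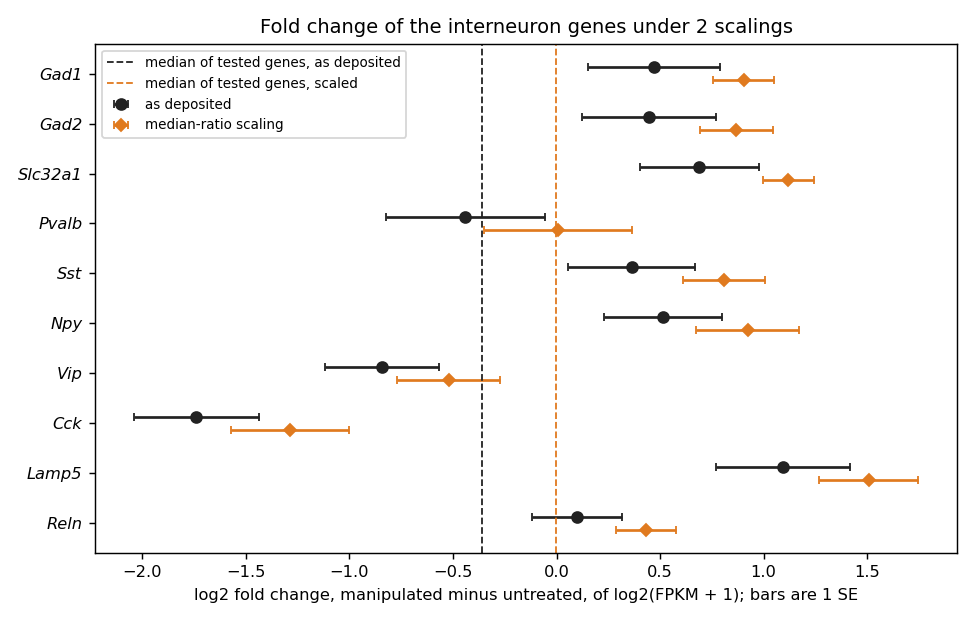
Log2 fold change of each gene, manipulated minus untreated, with 1 SE, as deposited (black circles) and with median-ratio scaling (orange diamonds); dashed lines are the medians of all tested genes, at -0.36 and -0.0036. Against either line Cck and Vip lie to the left and Lamp5, Slc32a1, Npy, Gad1, Gad2, Sst and Reln to the right, and Pvalb lies near the line in both.

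The order of the levels differed between groups. In untreated rats Cck led with 162 FPKM, then came Pvalb with 53.5, Sst with 39.5, Gad1 with 16.4, Slc32a1 with 13.7, Gad2 with 11.4, Lamp5 with 7.96, Npy with 7.78, Vip with 3.84 and Reln with 2.48 FPKM. In that group the range of Cck lay above that of Pvalb and the range of Sst above that of Gad1, while the ranges of all other neighbours met. Within each untreated library Pvalb also lay above Sst, Gad1 above Slc32a1, Slc32a1 above Gad2 and Npy above Vip. In manipulated rats Sst led with 51.2 FPKM, then came Cck with 47.7, Pvalb with 38.2, Gad1 with 23.9, Slc32a1 with 23.2, Lamp5 with 18.1, Gad2 with 16.7, Npy with 11.6, Reln with 2.69 and Vip with 1.60 FPKM. There the ranges of Sst and Cck met, so the first place is not settled. The range of Npy lay above that of Reln and the range of Reln above that of Vip, and the ranges of the other neighbours met. Within each manipulated library Slc32a1 also lay above Lamp5 and Gad2 above the Npy row. The place of Npy in both groups holds for its own row alone. Summed with its companion row it had 19.2, 29.4 and 18.0 FPKM in manipulated libraries, and 11.2, 14.6 and 19.1 FPKM in untreated libraries. Gad2 had 21.9, 18.4 and 9.70 FPKM in manipulated libraries, so that the sum lay above Gad2 in replicates 5 and 6.

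Other interneuron genes, from lists chosen with earlier results of these data known, showed no gene past the adjusted p by limma. Among further subtype markers 0 of 19 tested genes passed, with a median log2 fold change of -0.33 as deposited and 0.07 after scaling. Its lowest gene was Calb2, calretinin, with 4.90, 4.59 and 3.96 FPKM in manipulated and 8.88, 11.2 and 12.1 FPKM in untreated libraries, a log2 fold change of -1.09 with an adjusted p of 0.146. Calretinin marks interneurons that often carry Vip, and thalamic neurons carry it too. Its highest was Tac1, the precursor of substance P, with 13.5, 13.1 and 4.39 FPKM in manipulated and 4.65, 3.57 and 7.48 FPKM in untreated libraries. Tac1 is also a gene of striatal medium spiny neurons, and as deposited manipulated replicate 6 stood with the untreated libraries. After median-ratio scaling the groups of Tac1 did not overlap.

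Among 13 tested interneuron transcription factors 0 passed, and the median was 0.16 as deposited and 0.54 after scaling. Sp9 was highest, with 1.92, 2.01 and 1.32 FPKM in manipulated and 0.766, 0.621 and 0.640 FPKM in untreated libraries. Sp9 is also needed for striatal neurons that carry Drd2, as known from mice. Nr2f2, found in interneurons that arise in the caudal ganglionic eminence, was lowest, with 1.23, 3.04 and 3.00 FPKM in manipulated and 8.01, 6.12 and 4.91 FPKM in untreated libraries and an adjusted p of 0.248. In all, the groups did not overlap as deposited in 3 higher and 2 lower genes of the 13, Sp9 and Nr2f2 among them. Among all tested genes the shares were 1.08% higher and 23.7% lower. After scaling 7 higher and 1 lower did not overlap, beside 10.1% and 9.87% of tested genes.

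For GABA uptake, breakdown and the GABA-B receptor 0 of 8 tested genes passed, with a median of -0.27 as deposited and 0.16 after scaling. The lowest was the receptor subunit Gabbr2, with 15.3, 15.8 and 11.2 FPKM in manipulated and 31.4, 21.7 and 25.2 FPKM in untreated libraries and an adjusted p of 0.310. The highest was the GABA transaminase gene Abat, with a log2 fold change of 0.06, whose range of 13.6 to 48.2 FPKM in manipulated libraries took in all untreated values.

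Receptors of the peptides and of reelin were low, and 0 of 8 tested genes passed, with a median of -0.36 as deposited and -0.10 after scaling. Npy1r, a receptor of neuropeptide Y, was the lowest of those tested. It had 1.27, 1.59 and 0.831 FPKM in manipulated and 4.56, 2.63 and 2.28 FPKM in untreated libraries, with a limma adjusted p of 0.310. Its groups did not overlap, before or after scaling. Cckbr was the highest of those tested, with a log2 fold change of 0.18. Vipr2, a receptor of VIP, averaged under 1 FPKM and was not tested. It had 0.228, 0.2245 and 0.173 FPKM in manipulated and 1.14, 2.21 and 1.01 FPKM in untreated libraries, without overlap before or after scaling.

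Marker lists of other cells moved in the same libraries. Of 16 tested genes of striatal medium spiny neurons 15 had a positive log2 fold change, with a median of 1.04, 0 passed by limma as deposited, and the groups did not overlap in 8, all of them higher. With median-ratio scaling the median was 1.41, the groups did not overlap in 15, all higher, and 1 passed, the sodium channel subunit gene Scn4b, at 1.73 with an adjusted p of 0.0246. Among all tested genes 1.08% stood higher without overlap as deposited and 10.1% after scaling, where 0.094% passed as higher. Gnal, the olfactory and striatal G protein, was the lowest of the striatal list, at -0.06 as deposited. The list's summed level was 321, 331 and 134 FPKM in manipulated replicates 4, 5 and 6 and 121, 98.8 and 147 FPKM in untreated libraries. As deposited, replicates 4 and 5 were thus high, as for Gad1, Gad2, Slc32a1 and Lamp5, and the sum of replicate 6 lay in the untreated range. These sums are not scaled, and replicate 6 had the lowest median-ratio factor, 0.647. Rgs9, a striatal regulator of G protein signalling, had 14.6, 12.7 and 4.49 FPKM in manipulated and 2.78, 1.70 and 2.75 FPKM in untreated libraries. The ratio of Slc32a1 to Ppp1r1b, which encodes DARPP-32 of medium spiny neurons, was 0.326, 0.258 and 0.449 in manipulated and 0.641, 0.581 and 0.424 in untreated libraries, with overlapping ranges. The part of striatal RNA in the values of the interneuron genes was not tested.

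Markers of thalamic and hypothalamic neurons were lower, and 7 of 11 tested genes fell in manipulated rats by limma as deposited, with a median of -2.41. With median-ratio scaling 5 fell, with a median of -2.07, and Tcf7l2 and Ntng1 no longer passed, at adjusted p of 0.160 and 0.146. Of all tested genes 0.273% fell as deposited and 0.197% with scaling. The list's summed level was 30.2, 26.0 and 85.9 FPKM in manipulated and 164, 190 and 235 FPKM in untreated libraries. Most of the 85.9 FPKM of manipulated replicate 6 came from a pair of hypothalamic hormone genes. The oxytocin gene Oxt had 3.70, 3.97 and 46.5 FPKM in manipulated and 16.2, 24.3 and 40.5 FPKM in untreated libraries, so that replicate 6 was above every untreated library. The vasopressin gene Avp had 0.811, 0.812 and 23.4 FPKM in manipulated and 28.6, 31.6 and 25.8 FPKM in untreated libraries, and neither hormone gene passed. Slc17a6, the glutamate transporter of thalamic relay neurons, had 1.28, 1.10 and 1.17 FPKM in manipulated and 10.8, 9.64 and 11.4 FPKM in untreated libraries. The others that fell as deposited were Pmch, Prkcd, Shox2, Tcf7l2, Lef1 and Ntng1, with log2 fold changes of -4.48 to -1.80, and the highest of the list was Zic1, at -0.49. Cck and Vip were low in the same 3 libraries, and the part of these regions in their values was not tested. Cortical glutamatergic markers summed to 114, 148 and 93.8 FPKM in manipulated and 202, 135 and 172 FPKM in untreated libraries, 0 of 12 passed, and their median was -0.29 as deposited and 0.05 after scaling, with Tbr1 the highest at 0.62 and Nrn1 the lowest at -1.15. Every tested gene of the cortical list but Emx1 and Fezf2 was above 2 FPKM in every library. Emx1 had 0.781, 1.84 and 0.788 FPKM in manipulated and 2.84, 0.0 and 2.80 FPKM in untreated libraries. Fezf2 was at 1.89 FPKM in manipulated replicate 6.

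**Figure D4:**
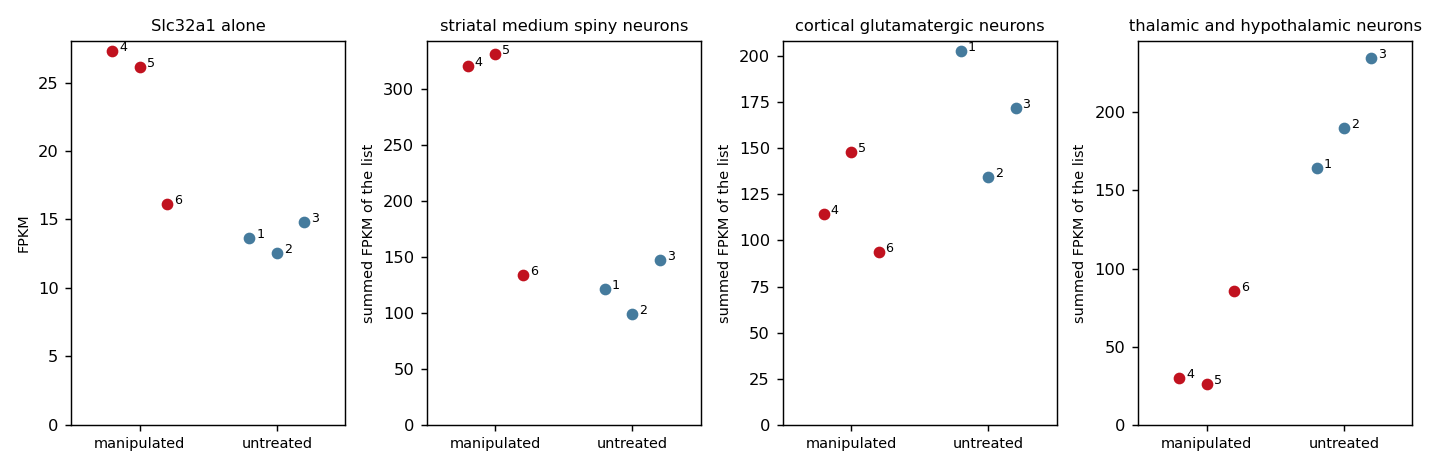
FPKM of Slc32a1 and summed FPKM of 3 marker lists in each library, manipulated replicates 4, 5 and 6 in red on the left and untreated replicates 1, 2 and 3 in blue on the right. Slc32a1 and the striatal list are both highest in manipulated replicates 4 and 5, and the thalamic and hypothalamic list is lower in all 3 manipulated libraries, with replicate 6 the highest of them at 85.9 FPKM.

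Of the remaining lists, 1 of 4 tested hippocampal genes fell, Bok, with 4.56 ± 0.489 FPKM in manipulated and 18.6 ± 5.03 FPKM in untreated rats (SD, n = 3 each) and a limma adjusted p of 0.0318. No tested gene of the astrocyte, oligodendrocyte, microglial, endothelial, choroid plexus, Cajal-Retzius or olfactory bulb lists passed as deposited. With median-ratio scaling 1 did, Lbhd2 of the olfactory bulb list, at 1.32 with an adjusted p of 0.0246. Among the glial and endothelial lists the medians ran between -0.40 and -0.10 as deposited and between -0.05 and 0.25 after scaling. By log2 fold change as deposited the range was 0.16 for Slc1a2 to -0.85 for Aldh1l1 in astrocytes, -0.03 for Cx3cr1 to -0.62 for P2ry12 in microglia and 0.20 for Flt1 to -0.47 for Cldn5 in endothelium. It was 1.97 for Kcnj13 to 0.34 for Aqp1 in choroid plexus, 1.06 for Lbhd2 to 0.71 for Sp9 in olfactory bulb, and -0.07 for Cdh9 to -1.78 for Bok in hippocampus. Kcnj13 was at 0.0 FPKM in manipulated replicate 4 and in every untreated library, and at 6.47 and 7.02 FPKM in manipulated replicates 5 and 6.

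Against Slc17a7 in the same library, 8 of the 10 interneuron genes stood apart between groups, 7 of them higher in manipulated libraries and Cck lower, beside 14.4% of the other tested genes, 10.5% higher and 3.87% lower. Slc17a7 itself had a log2 fold change of -0.52 as deposited and -0.06 with median-ratio scaling, and neither passed. Slc32a1 stood at 0.455, 0.352 and 0.318 of the Slc17a7 level in manipulated libraries, against 0.124, 0.176 and 0.174 in untreated libraries. Pvalb and Vip overlapped in this measure, with Pvalb at 0.476 to 0.709 in manipulated and 0.340 to 0.952 in untreated libraries.

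The genes most like each member were sought among all tested genes by Pearson's r of log2(FPKM + 1) over the 6 libraries, as a description of libraries that share 2 groups and a common scale. For Slc32a1 they were Elfn1, a synaptic protein of interneurons, with an r of 0.998, and Rgs9, with an r of 0.994. For Gad2 they were Clic4 and F2r (0.993 and 0.988), and for Gad1 Ankrd63 and Eid2b (0.988 for each). For Cck they were Zfp609 and Cbln1 (0.994 and 0.992), for Vip Fam181b and Eps8l2 (0.992 and 0.989), and for Lamp5 Crabp1 and Gpr6 (0.985 and 0.983). For Sst they were Tnnc2 and Ddx11 (0.984 and 0.975), for Pvalb AABR07049516.1 and Eif1a (0.986 and 0.983), and for Reln LOC680989 and Klhl15 (0.982 and 0.976). Npy was closest to its companion row LOC100912228, with an r of 1.0, and then to AABR07000631.1 (0.966). With 6 libraries such values are easily reached, and 5 to 78 genes had an r over 0.95 with a given member.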

How the data were processed

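The submitters' processing notes name STAR 2.7.3a, Cufflinks (with no version) and the rat build Rnor_6.0. Per the file headers, each deposited table holds the FPKM of 1 library by gene, with an interval for each value. Annotation release, strandedness, read totals and the handling of multiply mapped fragments were not given. Overlapping rows of 1 symbol were added up. Of 30076 symbols 26622 were kept, after leaving out 3254 that shared a row, 163 found at more than 1 place, 32 not in every library and 5 with a failed estimate. Those averaging 1 FPKM or more, 10642 symbols, entered limma (version 3.58.1, R 4.3.3), run on log2(FPKM + 1) with a mean-variance trend, no covariate, two-sided, Benjamini-Hochberg adjusted at 0.05. Fold changes are manipulated minus untreated and understate those of low genes on this scale. Median-ratio factors came from tested genes above 0 in all 6 libraries. The procedure was tested on simulated data. Starts count from 0 in the files and are given counted from 1. The labels give no batch.

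The members, lists and tests were chosen with earlier results of these data known. Genes named are the 10 members, the highest and the lowest of each list with every called gene of it, and the 2 genes most like each member. The highest and the lowest oligodendrocyte genes are not reported here. Others, with the ratios and the companion row of Npy, were chosen after their values were seen. Tables and figures came from Python 3.11.15 (pandas 2.3.3; numpy 2.4.6; drawing with matplotlib 3.10.9).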

Additional observations from a re-analysis of the deposited data

How the results depend on the processing

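As deposited, 38 genes and 0 of the 10 interneuron genes passed. The count of genes was 940 with weights per library, 84 with a robust variance prior and 24 with rows naming several genes kept, and 28 to 56 without 1 library. Of the interneuron genes 5 passed with weights per library (Vip, Gad2, Cck, Lamp5 and Slc32a1), and 1 passed in 6 other settings: Cck with a pseudocount of 0.1 (adjusted p 0.0499), with a mean of at least 5 FPKM (0.0215), without a trend (0.0287) and with a robust prior (0.00335), and Slc32a1 with median-ratio and upper-quartile scaling (0.0362 and 0.0363). Without 1 library the count was 0 in all 6 fits, both as deposited and with median-ratio scaling, a combination added after the data were seen. The cause of these differences was not tested. Pvalb changed sign, to 0.0074 with median-ratio scaling and, with that scaling, to 0.021 without untreated replicate 2, 0.29 without untreated replicate 3 and 0.27 without manipulated replicate 4. The other 9 genes kept their direction in every fit, with Cck between -2.05 and -1.09 and Slc32a1 from 0.56 upwards. The median of the striatal list was 1.43 without manipulated replicate 6. No paired analysis was possible because the labels give no pairing between rats of the 2 groups. Depth is unknown, and 3 rats a group limit the precision.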
